A study of Mus musculus with 12 samples.

Results

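The 10 genes examined here encode dehydrogenases and reductases that act on steroids or bile acid precursors in the liver: Akr1c6, Akr1d1, Hsd3b2, Hsd3b3, Hsd3b5, Hsd3b7, Hsd11b1, Hsd17b2, Hsd17b13 and Srd5a1. The rule that chose them names the genes by function and uses no measured value, although it was set with earlier results of these data known. Each was matched to a single entry of the 55385 features in the expression table, and all 10 were among the 16378 features with a mean of at least 1 TPM (transcripts per 1000000) that were tested. These enzymes add or remove hydrogen at fixed positions of the steroid ring, usually with NADP(H) or NAD(H) as cofactor, and so switch androgens, oestrogens and glucocorticoids between more and less active forms or prepare them for excretion. The liver is a main site of this inactivation, and in rodents several of the genes differ between the sexes under the control of pituitary growth hormone. Hsd17b13 carries the family name but is best known as an enzyme of the lipid droplet surface that oxidises retinol.

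RNA-Seq had been performed on livers of 12 male C57BL/6 mice, 4 in each of 3 groups, in an experiment asking whether a human long noncoding RNA, hGULL, can stand in for its mouse counterpart mGULL. Control mice (Ad-Ctrl) received Lac and pAdV5 adenoviruses, knockdown mice (Ad-shmGULL) a virus expressing a short hairpin RNA against mGULL together with pAdV5, and rescue mice (Ad-shmGULL+hGULL) the hairpin virus together with a virus expressing hGULL. All mice, the controls included, were thus infected with adenovirus, at 7 weeks of age and at a total of 500000000 plaque-forming units, and were killed 7 days later; whole liver was sampled, so fewer hepatocytes and less RNA per hepatocyte cannot be told apart. The route is given as intravitreal for this experiment, whereas the study's methods describe retro-orbital delivery of adenovirus. The levels of mGULL and hGULL were not analysed here.

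TPM sums to 1000000 in every mouse, so sequencing depth was unknown and precision is given by the spread between the 4 mice of a group. Hepatocyte markers were abundant in all livers, at a summed 84976 to 132971 TPM. Fold changes below are limma estimates on log2(TPM + 1) from 1 model over the 3 groups, p-values are adjusted over all 16378 genes by the Benjamini-Hochberg method, and the threshold the study used was an absolute log2 fold change above 0.5 at an unadjusted p below 0.05. Over all tested genes the median difference was 0.087 for knockdown minus control, 0.093 for rescue minus knockdown and 0.17 for rescue minus control. Scaling by the median of ratios moved the last of these to -0.01, and it moved the share of higher genes among those at the study's threshold from 69.9%, 77.6% and 91.4% in the 3 comparisons to 51.6%, 60.5% and 66.8%.

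In control livers the levels of the 10 genes spanned from 936 ± 74.5 TPM for Akr1c6 to 7.35 ± 0.756 for Hsd3b7 (SD, n = 4). TPM corrects for transcript length but not for reads that fit more than 1 gene. Hsd3b2, Hsd3b3, Hsd3b5, Hsd3b7 and Srd5a1 share stretches with other genes, as given below, so their places in the order are less certain. Hsd17b13 followed Akr1c6 at 379 ± 46.9, and neither of these leading genes overlapped with the next in the order over the 4 control mice. Hsd11b1, Akr1d1, Hsd17b2 and Hsd3b5 came next with means of 173, 149, 146 and 124, and each of them overlapped with its neighbour. Srd5a1 at 66.7 and Hsd3b3 at 56.9 overlapped with each other, and Hsd3b2 at 32.2 stood apart from the genes on either side. After knockdown the order of the leading pair was exchanged, with Hsd17b13 at 424 and Akr1c6 at 309 TPM, although the mice of the 2 genes then overlapped. The same exchange was seen in rescue mice, with 521 TPM for Hsd17b13 and 455 for Akr1c6, and there too the mice of both genes overlapped.

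**Figure D1:**
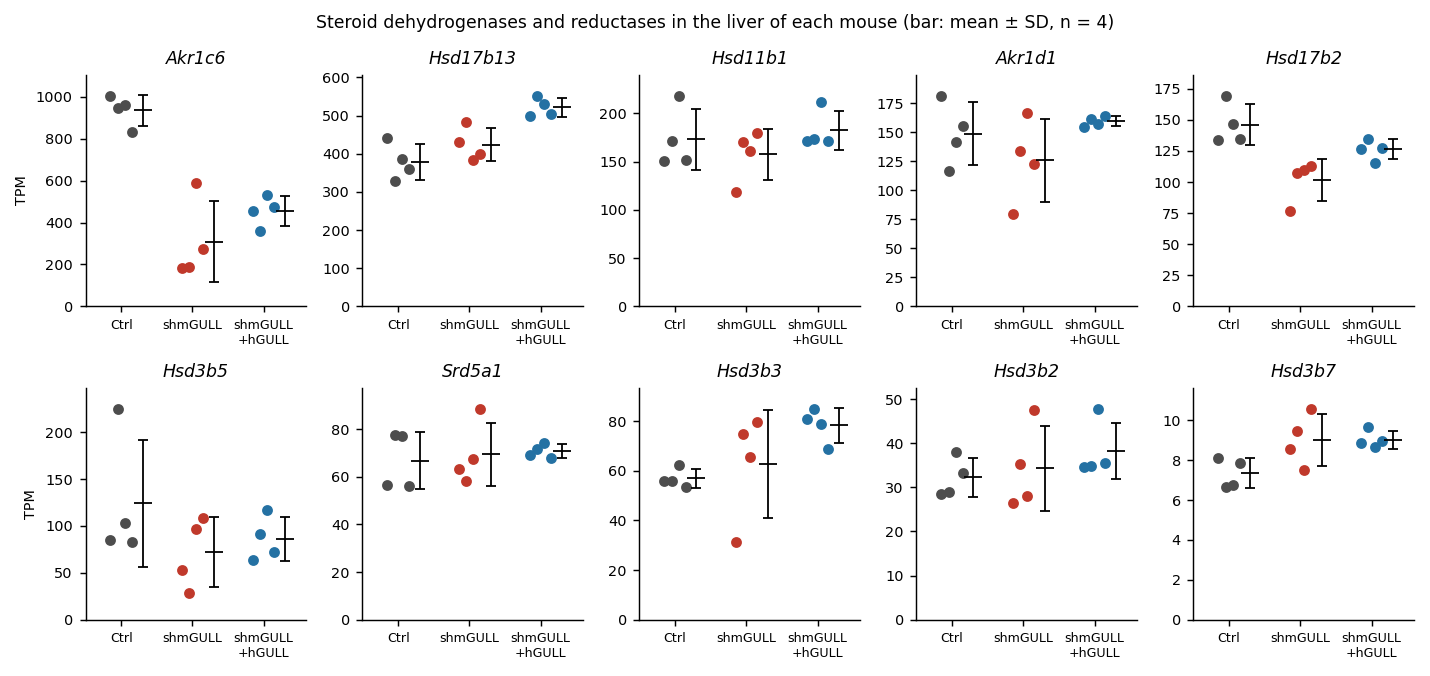
TPM of the 10 genes in each of the 12 livers, in the order of their control mean; points are mice 1 to 4 from left to right, the bar beside them is the mean ± SD of 4 mice, and every vertical axis starts at 0. Akr1c6 lay at 830 to 1005 TPM in control mice, at 183 to 589 in knockdown mice and at 360 to 529 in rescue mice.

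Knockdown of mGULL was accompanied by a lower level of 2 of the 10 genes, Akr1c6 and Hsd17b2, and by a higher level of 0 (adjusted p below 0.05). Of all tested genes 0.794% were lower and 2.44% higher by the same rule. Both genes also passed the study's threshold, which 2.30% of all genes passed in the lower direction, and both had knockdown mice that all lay below all control mice, as did 2.06% of all genes. Hsd3b7 had an unadjusted p below 0.05 as well, so that 3 of the 10 did, as did 3316 of the 16378 tested genes. The median of the 10 log2 fold changes was -0.04 against 0.087 over all genes, and 5 of 10 were positive against 65.5% of all genes.

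Akr1c6 encodes an aldo-keto reductase, the mouse 17β-hydroxysteroid dehydrogenase type 5, which interconverts androstenedione and testosterone. The gene (ENSMUSG00000021210.16) spans chr13:4434311-4457530 on the plus strand of GRCm38.p6. Its level was 1005, 947, 961 and 830 TPM in the 4 control mice, 183, 190, 589 and 275 in the knockdown mice and 456, 360, 529 and 475 in the rescue mice. All knockdown and all rescue mice lay below the lowest control mouse, and knockdown mouse 3 lay above every rescue mouse. Akr1c6 fell by 1.76 on the log2 scale after knockdown (SE 0.29, adjusted p = 0.0119), to 33.0% of the control mean, and ranked 65th of all tested genes by p. The 95% interval of the difference ran from -2.40 to -1.13. Leaving out any single mouse kept the call, with a log2 fold change between -2.13 (without knockdown mouse 3) and -1.57. With only the control and knockdown mice in the model the adjusted p was 0.0524.

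The coefficient of variation of Akr1c6 was 7.96% in control, 61.8% in knockdown and 15.5% in rescue mice. In the rescue group the mean reached 48.6% of control. Rescue minus knockdown was 0.72 (SE 0.29, unadjusted p = 0.0294, adjusted p = 0.422), which passed the study's threshold and not the adjusted one, and rescue minus control was -1.05 (SE 0.29, adjusted p = 0.0692). Leaving out knockdown mouse 1 or 2 or rescue mouse 1, 3 or 4 took the rescue minus knockdown difference off the study's threshold, and leaving out knockdown mouse 1 or 3 brought the adjusted p of rescue minus control to 0.0481 or 0.0202. On the log2 scale the rescue mean lay 40.6% of the way from the knockdown mean back to the control mean. The promoter of Akr1c6 is shown because this gene had the largest difference after knockdown among the 10. It is given from 250 bases before to 50 bases after the annotated start (RefSeq, GRCm38.p6, chr13:4434093-4434392, plus strand), with the only match to the searched motifs, a TATAAA box that begins 164 bases before the start, in capitals. This start is that of the promoter window and lies inside the gene span given above, not at its first base.
Akr1c6: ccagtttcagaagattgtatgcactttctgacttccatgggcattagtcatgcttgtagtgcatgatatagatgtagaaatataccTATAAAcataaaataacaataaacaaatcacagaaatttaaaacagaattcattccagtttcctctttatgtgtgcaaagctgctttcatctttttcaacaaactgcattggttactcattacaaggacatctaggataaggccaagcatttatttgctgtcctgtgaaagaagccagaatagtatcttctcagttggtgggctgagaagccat
The motifs searched on both strands of all 32851 promoters were TGACG, a half-site of CREB, the factor whose coactivator CRTC2 the study examined (20.8% of promoters), TTCNNNGAA, the type bound by STAT5 (8.30%), CAAAGTCCA, a type bound by HNF4 (0.475%), and TATAAA (13.6%). Among the members, the STAT5-type motif was found in the promoter of Hsd3b7, beginning 21 bases before the start. A match is a description of the sequence, not an occupied site.

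Hsd17b2 encodes the 17β-hydroxysteroid dehydrogenase that oxidises oestradiol and testosterone to their less active ketones, the opposite direction to the reductive Akr1c6 reaction. The gene (ENSMUSG00000031844.8) lies at chr8:117700982-117759030 (GRCm38.p6), on the chromosome that also holds mGULL, and ends 1.64 Mb before Mlycd, the neighbour of mGULL. Levels were 134, 169, 147 and 134 TPM in control, 76.8, 108, 110 and 113 in knockdown and 127, 135, 115 and 128 in rescue mice. The 4 knockdown mice lay below all control mice and below all rescue mice, while rescue and control mice overlapped. Hsd17b2 fell by 0.53 on the log2 scale after knockdown (SE 0.12, adjusted p = 0.0390), from 146 ± 16.6 to 102 ± 16.8 TPM, that is to 69.6% of control. Rescue minus knockdown was 0.32 (SE 0.12, unadjusted p = 0.0207, adjusted p = 0.411) and rescue minus control was -0.21 (adjusted p = 0.303). The rescue mean of 126 ± 8.10 TPM lay 61.1% of the way back on the log2 scale. The call after knockdown was close to its threshold: it was kept in 4 of 12 analyses that left out a single mouse and lost without control mouse 2, 3 or 4, without knockdown mouse 2 and without any single rescue mouse, with adjusted p-values of 0.0308 to 0.113 over the 12 and log2 fold changes of -0.58 to -0.40. It was also lost with only control and knockdown mice in the model, without the filter, without the trend and with array weights (adjusted p = 0.130, 0.0757, 0.0597 and 0.0585).

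**Figure D2:**
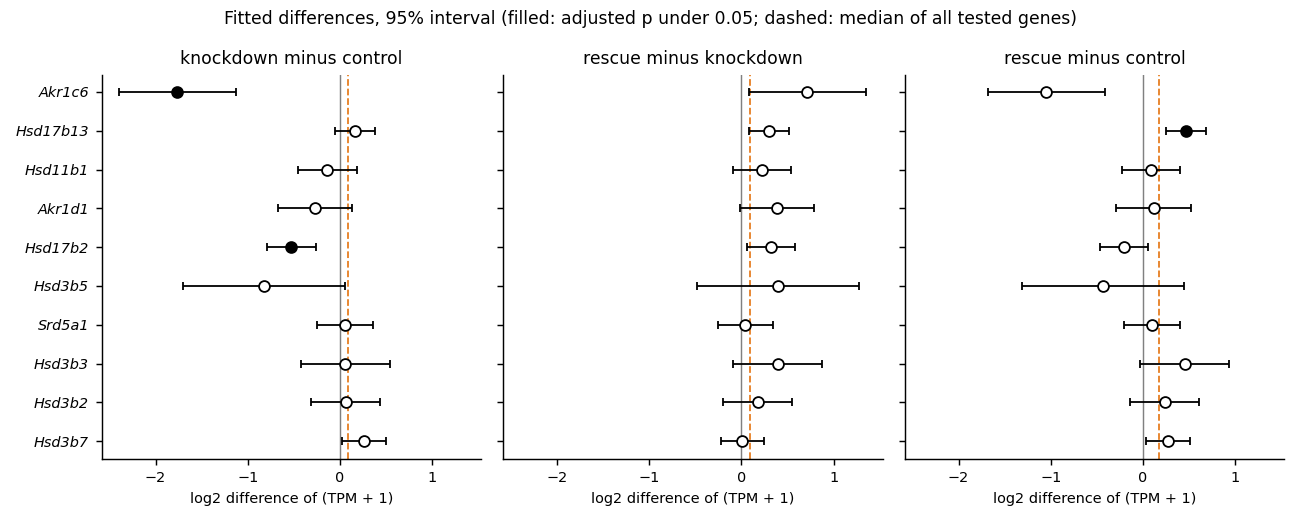
Fitted log2 differences with their 95% intervals for the 10 genes in the 3 comparisons (horizontal axis, log2 of TPM + 1); filled points have an adjusted p below 0.05 and the dashed line is the median of all tested genes. Filled points are Akr1c6 at -1.76 and Hsd17b2 at -0.53 after knockdown and Hsd17b13 at 0.47 in rescue against control.

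Hsd17b13 was the only member called between rescue and control mice, in the higher direction (1 of 10 against 2.12% of all genes). The gene (ENSMUSG00000034528.15, chr5:103955442-103977388, minus strand) was at 440, 329, 385 and 360 TPM in control, 430, 482, 383 and 399 in knockdown and 499, 552, 529 and 504 in rescue mice. Every rescue mouse exceeded every other mouse, whereas knockdown and control mice overlapped. Rescue minus control was 0.47 (SE 0.10, adjusted p = 0.0426), or 0.29 above the median of all genes, and rescue minus knockdown was 0.30 (SE 0.10, unadjusted p = 0.0105, adjusted p = 0.388). Knockdown minus control was 0.16 (adjusted p = 0.394). The mean of 521 ± 24.7 TPM in rescue mice thus lay farther from the control mean than the 424 ± 43.8 TPM in knockdown mice. With scaling by the median of ratios the rescue minus control difference was 0.26 and not called (adjusted p = 0.205), with quantile normalization it was 0.41 (adjusted p = 0.121), and the call was also lost without the filter, without the trend and with a replicate block (adjusted p = 0.0838, 0.0603 and 0.0767). Leaving out a single mouse kept the call in 4 of 12 analyses, those without control mouse 1 or knockdown mouse 1, 2 or 3, over a range of adjusted p from 0.0191 to 0.141. The Hsd17b13 promoter (chr5:103977339-103977638, minus strand) is shown because it held the only CREB half-site among the promoters searched, which were those of the 10 genes except Hsd17b2, in capitals, on the strand opposite to transcription and beginning 33 bases before the start.
Hsd17b13: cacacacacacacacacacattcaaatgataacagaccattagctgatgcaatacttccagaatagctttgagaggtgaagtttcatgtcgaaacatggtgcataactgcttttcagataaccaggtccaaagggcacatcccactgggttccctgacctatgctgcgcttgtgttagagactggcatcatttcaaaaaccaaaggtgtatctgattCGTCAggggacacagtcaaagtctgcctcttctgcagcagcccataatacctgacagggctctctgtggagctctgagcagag

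Hsd3b2, Hsd3b3 and Hsd3b5 lie within 146 kb on the minus strand of chromosome 3 (98618636 to 98764540). Hsd3b2 and Hsd3b3 encode 3β-hydroxysteroid dehydrogenase/isomerases, which convert the early steroid precursors to 4-ene-3-ketosteroids, while Hsd3b5 encodes a male-predominant liver enzyme that works as a 3-ketosteroid reductase. Their coding sequences were 95.1% identical between Hsd3b2 and Hsd3b3 and 80.3% and 80.0% identical between either of these and Hsd3b5. Of the 75-base stretches of their transcripts, 16.0% for Hsd3b2, 4.40% for Hsd3b3 and 8.72% for Hsd3b5 also occurred in another gene, most often Hsd3b3, Hsd3b2 and Hsd3b4, respectively (GENCODE transcripts of GRCm39), so that a part of their reads could have been assigned to a relative or left out. Hsd3b5 was at 85.5, 225, 104 and 82.6 TPM in control, 53.5, 28.9, 96.2 and 109 in knockdown and 63.6, 91.4, 117 and 72.0 in rescue mice. The groups overlapped, and control mouse 2 stood above all others. Knockdown minus control was -0.82 with an interval from -1.70 to 0.05 (adjusted p = 0.277), rescue minus knockdown was 0.39 and rescue minus control -0.43 (adjusted p = 0.514).

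Hsd3b3 was at 53.5 to 62.4 TPM in control, at 31.5, 74.6, 65.3 and 79.7 in knockdown and at 80.7, 84.9, 78.8 and 68.6 in rescue mice. All rescue mice lay above all control mice, while the knockdown mice, with mouse 1 far below the other 3, overlapped with both groups. Rescue minus control was 0.45 (SE 0.22, adjusted p = 0.224), rescue minus knockdown 0.39 (adjusted p = 0.537) and knockdown minus control 0.06, with an interval from -0.42 to 0.54. Hsd3b2 was at 28.6 to 38.1 TPM in control, 26.4 to 47.6 in knockdown and 34.7 to 47.8 in rescue mice, with log2 differences of 0.06, 0.17 and 0.24 and no call. The log2 ratio of Hsd3b5 to Hsd3b3 was formed within a mouse from TPM + 1, so scaling between mice cancels except for the added 1. It was 0.98 ± 0.67 in control, 0.10 ± 0.97 in knockdown and 0.10 ± 0.37 in rescue mice. All rescue mice lay below all control mice for this ratio, a difference of -0.88 with the smallest p that 4 against 4 can give (exact permutation test, two-sided, p = 0.0286), which was 0.171 after adjustment over 6 ratio tests. Without control mouse 2 the difference was -0.55. The knockdown difference had the same size, -0.88, but the mice overlapped (exact permutation p = 0.143).

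The promoters of these neighbours are shown because the genes are close copies within 1 cluster. Over whole alignments of the 300-base windows, identity was 45.0% between Hsd3b2 and Hsd3b3, 50.2% between Hsd3b2 and Hsd3b5 and 54.1% between Hsd3b3 and Hsd3b5. Gaps, including unmatched window ends, count as differences here, and the alignment of Hsd3b3 with Hsd3b5 was 351 positions long. These percentages thus depend on where the annotated starts lie and cannot be set against those of the coding sequences. All these promoters are on the minus strand (RefSeq, GRCm38.p6), Hsd3b2 at chr3:98724494-98724793, Hsd3b3 at chr3:98763079-98763378 and Hsd3b5 at chr3:98645485-98645784, and capitals mark the HNF4-type motif.
Hsd3b2: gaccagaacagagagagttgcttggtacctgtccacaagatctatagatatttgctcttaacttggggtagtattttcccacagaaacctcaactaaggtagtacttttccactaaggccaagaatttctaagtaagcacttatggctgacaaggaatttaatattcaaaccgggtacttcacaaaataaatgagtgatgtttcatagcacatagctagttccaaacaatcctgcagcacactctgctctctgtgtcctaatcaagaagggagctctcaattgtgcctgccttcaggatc
Hsd3b3: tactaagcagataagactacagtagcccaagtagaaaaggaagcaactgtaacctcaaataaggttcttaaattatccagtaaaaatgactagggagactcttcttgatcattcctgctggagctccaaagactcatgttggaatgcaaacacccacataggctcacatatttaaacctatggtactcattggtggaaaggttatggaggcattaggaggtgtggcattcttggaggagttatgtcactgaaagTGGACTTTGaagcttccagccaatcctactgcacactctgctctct
Hsd3b5: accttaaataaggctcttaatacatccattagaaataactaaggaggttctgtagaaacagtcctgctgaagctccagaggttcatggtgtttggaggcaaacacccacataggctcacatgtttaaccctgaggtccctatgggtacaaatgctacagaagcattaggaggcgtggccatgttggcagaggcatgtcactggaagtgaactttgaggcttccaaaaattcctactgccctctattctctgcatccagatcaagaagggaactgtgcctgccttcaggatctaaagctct
The motif, read here as its reverse complement, began 4 bases after the start of Hsd3b3 and 3 bases after the start of a further annotated Hsd3b3 promoter at chr3:98762361-98762660. Both starts are those of the promoter windows and lie inside the span of Hsd3b3, which reaches to 98764540. The closest stretch of the Hsd3b5 promoter, tgaactttg, began 44 bases before the start and differed from the Hsd3b3 letters TGGACTTTG by the single substitution G3A, counted from the first of the 9 letters. The closest stretches of the Hsd3b2 promoter differed at 3 letters. Of all promoters 8.47% held the 9 letters with at most 1 mismatch, against 0.475% with all letters matched.

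The other members showed smaller differences, none of them called. Hsd3b7, which acts on the sterol ring early in bile acid synthesis, was at 6.65 to 8.12 TPM in control, 7.51 to 10.6 in knockdown and 8.65 to 9.69 in rescue mice. All its rescue mice lay above all control mice, at a difference of 0.27 with an interval from 0.03 to 0.51 (adjusted p = 0.155), and the knockdown difference was 0.26 with an interval from 0.02 to 0.50 (adjusted p = 0.204). Of the 75-base stretches of Hsd3b7, 35.2% also occur in the gene model Gm49388, which the table listed at 0 in every mouse. Hsd11b1, which regenerates active glucocorticoid inside the cell, was at 151 to 218 TPM in control, 119 to 179 in knockdown and 171 to 212 in rescue mice, and the knockdown difference of -0.14 had an interval from -0.45 to 0.18.

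Akr1d1 and Srd5a1 are alternative routes for the same substrates, since Akr1d1 reduces the double bond of 4-ene-3-ketosteroids to the 5β form, as bile acid synthesis requires, and Srd5a1 to the 5α form, as in dihydrotestosterone. Akr1d1 was at 181, 116, 142 and 155 TPM in control, 79.9, 133, 166 and 123 in knockdown and 155, 161, 157 and 164 in rescue mice. The 3 groups overlapped, and the rescue mice were the most alike, with a coefficient of variation of 2.70% against 28.4% after knockdown. The knockdown difference was -0.27 with an interval from -0.67 to 0.13, and rescue minus knockdown was 0.39 (unadjusted p = 0.0589, adjusted p = 0.475). Of the 75-base stretches of Srd5a1, 17.3% also occur in the gene model Gm17108. Srd5a1 had means of 66.7, 69.4 and 70.7 TPM in control, knockdown and rescue mice and a knockdown difference of 0.06 with an interval from -0.25 to 0.36, which scaling by the median of ratios turned to -0.05. The log2 ratio of Akr1d1 to Srd5a1 was 1.14 ± 0.50 in control, 0.82 ± 0.49 in knockdown and 1.16 ± 0.080 in rescue mice (SD, n = 4), and the smallest of its 3 exact permutation p-values was 0.400.

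The comparison of rescue with knockdown mice addressed whether hGULL altered what knockdown had left. In this comparison no gene of the table had an adjusted p below 0.05 by limma (1757 genes, among them 3 members, had an unadjusted p below 0.05). Akr1c6 alone among the 10 passed the study's threshold in the higher direction, as did 2.33% of all genes, and Hsd17b2 and Hsd17b13 had rescue mice that all exceeded the knockdown mice, as did 5.40% of all genes. All 10 log2 differences were positive, against 70.9% over all genes, with a median of 0.31 against 0.093. Scaling by the median of ratios made the differences of Hsd3b7 and Srd5a1 negative. Between rescue and control mice, Akr1c6 was the only member at the study's threshold in the lower direction (0.641% of all genes) and the only one whose rescue mice all lay below control (0.855% of all genes). Hsd3b3, Hsd3b7 and Hsd17b13 had rescue mice that all lay above control, as did 21.4% of all genes. These comparisons share their mice, so that a low value in a knockdown mouse enters both the difference from control and the difference from rescue.

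Summed over the 10 genes, the level was 2070 ± 137 TPM in control, 1365 ± 252 in knockdown and 1726 ± 96.5 in rescue mice. Akr1c6 made up 44.5% to 46.8% of this sum in control, 14.7% to 35.2% in knockdown and 21.5% to 28.3% in rescue mice. Without Akr1c6 the sums were 1134 ± 68.6, 1056 ± 114 and 1271 ± 66.1 TPM, so that most of the lower sum after knockdown was the level of this single gene. Within the knockdown group, mouse 1 was the lowest for 6 of the 10 genes and the highest for 0, and mouse 4 was the highest for 7 and the lowest for 0. Akr1c6 and Akr1d1 were lowest in mouse 1 and highest in mouse 3.

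**Figure D3:**
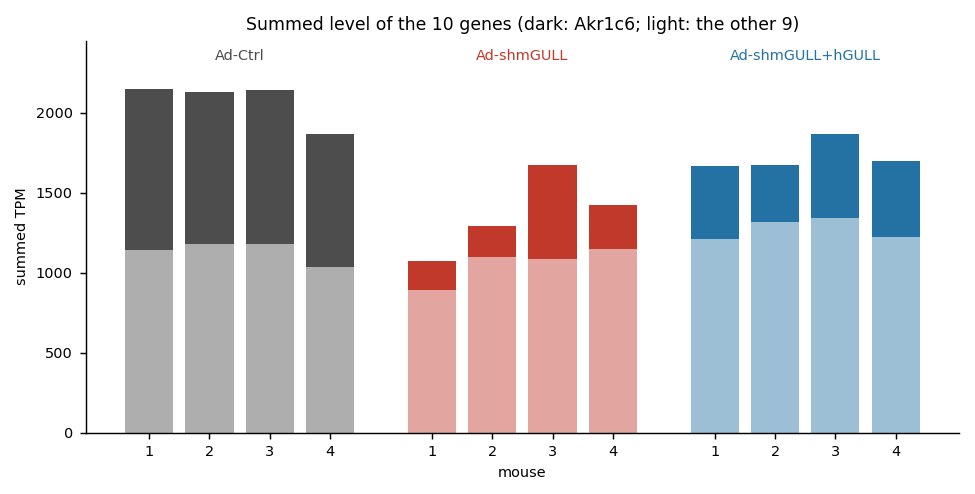
Summed TPM of the 10 genes in each mouse (vertical axis, from 0); dark bars are Akr1c6 and light bars the sum of the other 9 genes. The dark part made up 44.5% to 46.8% of the bar in control mice and 14.7% to 35.2% in knockdown mice, while the light part lay at 1035 to 1180 TPM in control and 889 to 1149 TPM in knockdown mice.

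Among relatives of these enzymes 1 was called after knockdown. Of 28 other genes of the Hsd3b, Hsd11b, Hsd17b, Akr1c and Srd5a families, 25 were found and 15 tested, and Hsd17b3 and Akr1cl were listed at 0 in every mouse. Akr1c19, a paralogue of Akr1c6, rose from 70.3 ± 9.06 to 96.7 ± 11.7 TPM after knockdown (log2 fold change 0.46, adjusted p = 0.0380) and was at 104 ± 6.27 in rescue mice (0.57 against control, adjusted p = 0.0381), and 0 relatives were lower (also 0 at an unadjusted p below 0.05). Differences of 12 of the 15 were positive, with a median of 0.14. The relatives with the highest level were Hsd17b4, the peroxisomal multifunctional enzyme, at 425 in control and 478 TPM in knockdown mice (0.17, adjusted p = 0.325), Akr1c14, a 3α-hydroxysteroid dehydrogenase, at 367 and 342 (-0.11, adjusted p = 0.628), and Hsd17b10, a mitochondrial dehydrogenase, at 242 and 237 (-0.05, adjusted p = 0.882).

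Steroid hydroxylases and conjugating enzymes, which act before or after the dehydrogenases, changed in both directions, with 2 of 17 tested genes higher and 2 lower after knockdown and a median of -0.09. Cyp2c29, a cytochrome P450, rose from 960 ± 220 to 1914 ± 423 TPM (adjusted p = 0.0237), and Cyp2a4, a female-predominant steroid 15α-hydroxylase, from 14.9 ± 12.8 to 178 ± 135 TPM (3.43, adjusted p = 0.0360). Cyp7b1, an oxysterol and steroid 7α-hydroxylase, fell from 582 ± 84.1 to 291 ± 142 TPM (-1.09, adjusted p = 0.0306). Ugt2b38, a glucuronosyltransferase that was named after its values were seen, fell by 1.60 on the log2 scale (adjusted p = 0.0396). The median difference of 6 tested steroid receptors and NADPH suppliers was 0.0041 after knockdown.

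**Figure D4:**
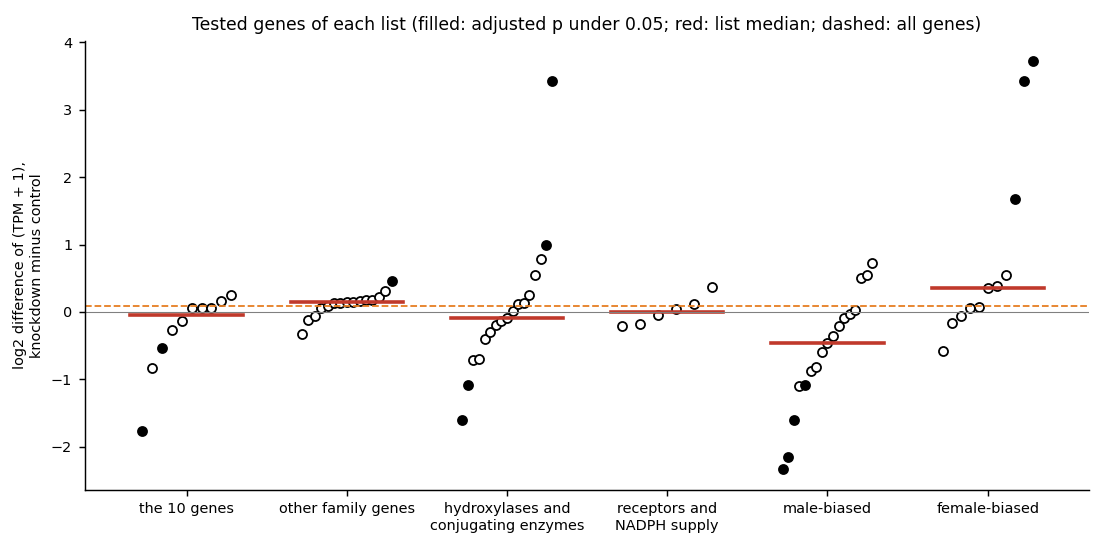
Log2 difference of TPM + 1 between knockdown and control mice (vertical axis) for the tested genes of 6 lists; filled points have an adjusted p below 0.05, red lines are list medians and the dashed line is the median of all tested genes. The median was -0.04 for the 10 genes, 0.14 for the other family genes and -0.46 for male-biased genes.

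Because Hsd3b5 and several hydroxylases are sex-dependent in mouse liver, sex-biased genes were examined beside them. Of 17 tested male-biased genes, a list that does not hold the 10 genes and shares Cyp7b1, Cyp2d9 and Ugt2b38 with the hydroxylases, 4 fell and 0 rose after knockdown (8 lower and 3 higher at an unadjusted p below 0.05), with a median of -0.46. These were Selenbp2, a selenium-binding protein (-2.15, adjusted p = 0.00747), Mup7, a major urinary protein with near-identical relatives (-2.33, adjusted p = 0.0324), and Cyp7b1 and Ugt2b38 as given above. The summed level of the list was 19182 to 25405 TPM in control, 11833 to 18660 in knockdown and 14492 to 17593 in rescue mice, so that all knockdown and all rescue mice lay below all control mice, as they did for Akr1c6. The sum is weighted to the most abundant genes. Taken singly, 2 of the 17 had all knockdown mice below control and 1 all above (2.06% and 6.93% of all genes). For rescue mice these were 4 below and 2 above (0.855% and 21.4% of all genes). Of 11 tested female-biased genes 3 rose and 0 fell: Acot3, an acyl-CoA thioesterase (1.67, adjusted p = 0.0194), Cyp2b9, a cytochrome P450 (3.72, adjusted p = 0.0332), and Cyp2a4. The summed female-biased level was 66.9 to 101 TPM in control, 120 to 552 in knockdown and 101 to 334 in rescue mice. All mice were male according to the study's methods, and the part of these sex-biased genes in the values of Akr1c6, Hsd17b2 and Hsd3b5 was not tested.

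Markers of liver zones and cell types gave the following values beside the fall of Akr1c6. Of the 12 hepatocyte markers 0 were called after knockdown (4 had an unadjusted p below 0.05), the median of 12 periportal markers was -0.28, and of 12 pericentral markers 1 was higher (Aldh3a2, median 0.0074). There were 0 calls among 8 Kupffer cell and macrophage, 10 T cell and NK cell, 3 B cell and plasma cell, 8 stellate cell, 4 cholangiocyte and 5 neutrophil markers, of which 1, 0, 1, 1, 1 and 0 had an unadjusted p below 0.05, and no defining marker was at 0 in all mice. Of 8 liver endothelial markers 1 was higher (Stab2) and all 8 differences were positive (median 0.39), with a summed level of 153 to 253 TPM in control, 240 to 323 in knockdown and 238 to 288 in rescue mice. Of 11 acute phase genes 0 were called (4 had an unadjusted p below 0.05) and 10 differences were negative. Of 15 interferon response genes 4 were lower (Ifit1, Rsad2 and Isg15, and Ifi44, which was named after its values were seen) and all 15 differences were negative after knockdown (median -0.82), and all 15 were positive in rescue minus knockdown (median 0.64). Their summed level was 716 to 1456 TPM in control, 287 to 745 in knockdown and 863 to 1118 in rescue mice, and the part of these genes in the values of the steroid dehydrogenases was not tested.

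The genes most like a member were taken as those with the smallest mean absolute difference of centred log2 levels over the 12 mice among 9517 protein-coding genes, for the 3 members that varied most. For Akr1c6 these were Mgst1, a microsomal glutathione transferase (mean difference 0.23), Sdf2l1, an endoplasmic reticulum protein (0.27), and Ang, a secreted ribonuclease (0.29). Mgst1 was at 2577 ± 259 TPM in control, 1156 ± 634 in knockdown and 1825 ± 168 in rescue mice, Sdf2l1 at 62.9 ± 4.29, 24.7 ± 9.44 and 40.0 ± 5.45, and Ang at 288 ± 48.2, 145 ± 48.6 and 176 ± 30.3. For all of these the rescue mean thus lay between the knockdown and control means, as for Akr1c6. For Hsd3b5 the nearest genes were Sult5a1 (0.26), Agxt (0.29) and Pfkfb3 (0.30), and for Hsd3b3 they were Zfp825 (0.092), Il18 (0.097) and Ugt1a6b (0.11), the last of which shares its 3′ exons with other Ugt1a genes. These are descriptions over mice that share their groups, so a like difference between groups brings genes near each other.

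**Figure D5:**
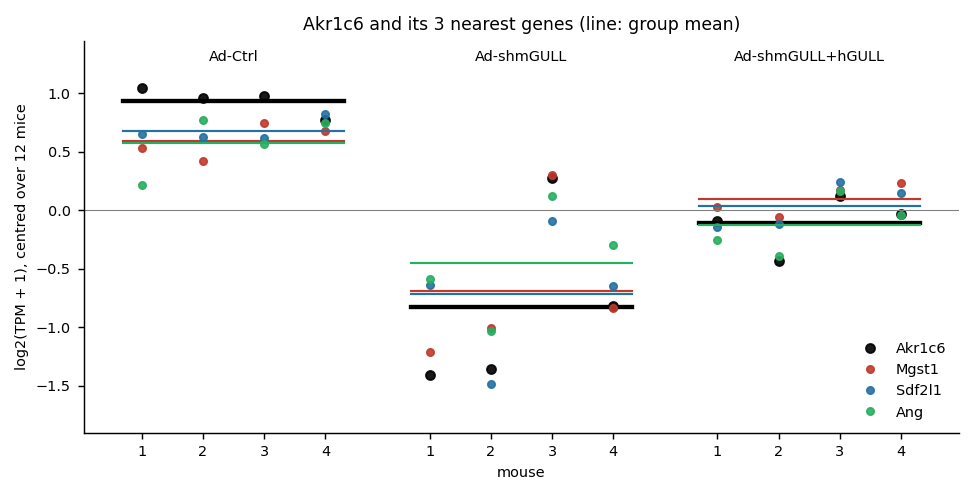
Log2(TPM + 1) of Akr1c6 and its 3 nearest genes in each mouse, centred on the mean of each gene over 12 mice (vertical axis); lines are group means. In knockdown mouse 3 all 4 genes lay above their group mean, and in rescue mice their means lay between those of knockdown and control mice.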

How the data were processed

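Liver RNA-Seq of 12 mice was analysed, 4 per group, grouped by the sample labels. According to the submitters' processing notes and the study's methods, the authors trimmed reads with fastp 0.23.2, checked them with FastQC 0.11.8, aligned them with HISAT2 2.2.1.0 to GRCm38.p6, counted them on GENCODE genes with featureCounts (Subread 2.0) and deposited TPM values, 1 table for all mice. TPM keeps no depth, so no counting error is given, and an exact 0 may be a failed estimate (all 37 mitochondrial features were at 0). The test used by the study is not given in the sources used here.

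The deposited TPM were analysed as log2(TPM + 1) with limma 3.58.1 in R 4.3.3, for features with a mean of at least 1 TPM, in 1 model over the 3 groups with a mean-variance trend and no covariate. The procedure was tested on simulated data in which each gene had the same spread in every group. That simulation does not cover genes such as Akr1c6, whose spread differed between the groups. Ratios of members were compared with exact permutation tests in SciPy 1.17.1. Sequences came from RefSeq tables of GRCm38.p6 (9 of 10 genes had a promoter), shared stretches from GENCODE transcripts of GRCm39, and identities from global alignments in Biopython 1.88. Figures were drawn with matplotlib 3.10.9.

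The 10 genes, the lists and the tests were chosen with earlier results of these data known. Named beside the members are at most 3 called genes per list with the smallest p after knockdown, the 3 most abundant family relatives, and the 3 genes nearest to each of the 3 most variable members; Ugt2b38 and Ifi44 were named after their values were seen, and some results of the lists are not reported here. Where labels name no separate cage or litter, p-values measure the spread between these mice only. Alternatives were a smaller pseudocount (0.1), testing every feature, a stricter filter (mean of at least 5 TPM), scaling by median of ratios, quantile normalization, fitting only the 2 groups of a comparison, a constant prior variance, weights per sample, a replicate block, and leaving out each mouse.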

Additional observations from a re-analysis of the deposited data

Results flagged for a closer look

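In 4 of 30 combinations of gene and group, 1 mouse stood apart from the other 3 by more than Dixon's 95% critical value for 4 samples, a rule that flags about 1 in 20 groups by chance. Hsd3b5 reached 225 TPM in control mouse 2, far above the other control mice, and this mouse enters the control mean of 124 TPM. Hsd17b2 was at 76.8 TPM in knockdown mouse 1, below the other 3 at 108 to 113. In rescue mouse 3, Hsd3b2 was at 47.8 TPM and Hsd11b1 at 212 TPM, each above the other rescue mice.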

How the results depend on the processing

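Under the alternatives other than leaving out a mouse, 238 fitted member differences kept their direction and their side of the adjusted threshold, 18 changed direction, 10 lost the call and 4 gained it. The count of members called after knockdown (2) was 1 without the filter, without the trend and with array weights and 0 with only the 2 groups compared, and at the study's threshold it was 1 with array weights. For rescue minus knockdown the count at the study's threshold (1) was 0 with median-of-ratios scaling and with only the 2 groups. For rescue minus control the called count (1) was 0 without the filter, with either scaling and without the trend, and 3 with only the 2 groups or array weights, which added Akr1c6 and Hsd3b3. Causes were not tested. Leaving out a mouse gave 1 to 2 called members after knockdown and 1 to 3 at the study's threshold (1 without control mouse 2 or knockdown mouse 1), 0 to 2 for rescue minus knockdown at the study's threshold, and for rescue minus control 0 to 3 called and 1 to 2 at the study's threshold.

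Differences that changed sign were small and uncalled. Under median-of-ratios scaling Hsd3b2 was -0.047, Hsd3b3 -0.049 and Srd5a1 -0.054 after knockdown, Hsd3b7 -0.074 and Srd5a1 -0.049 in rescue minus knockdown, and Akr1d1 -0.087, Hsd11b1 -0.12 and Srd5a1 -0.10 in rescue minus control. Under quantile normalization the same differences were -0.0097, -0.019, -0.027, -0.087, -0.034, -0.027, -0.051 and -0.061, in this order. Array weights gave -0.050 for Hsd3b7 and -0.072 for Srd5a1 in rescue minus knockdown. Without a single mouse the ranges that crossed 0 after knockdown were -0.10 to 0.17 for Hsd3b2, -0.081 to 0.36 for Hsd3b3 and -0.066 to 0.13 for Srd5a1, and in rescue minus knockdown -0.066 to 0.082 for Hsd3b7 and -0.033 to 0.16 for Srd5a1.

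Counts over all genes moved more. After knockdown the 529 called genes were 236 without the filter, 33 with only the 2 groups, 344 without the trend and 167 to 1055 without a mouse, and the 1253 at the study's threshold were 765 at a mean of at least 5 TPM and 1029 to 1649 without a mouse. For rescue minus knockdown the called count of 0 was 1 with only the 2 groups and 0 to 2 without a mouse, and the 492 at the study's threshold were 242 at the stricter filter and 360 to 843 without a mouse. For rescue minus control the 352 called genes were 9 without the filter, 568 at the stricter filter, 11 with either scaling, 1698 with only the 2 groups, 35 without the trend, 3184 with array weights and 3 to 1068 without a mouse, and the 1226 at the study's threshold were 708 at the stricter filter, 723 and 701 with median-of-ratios and quantile scaling and 864 to 1692 without a mouse.

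Same-numbered mice showed no clear shared deviation, with correlations of -0.24 to 0.15 over 12 pairs, 2 of them above 0.1. The best match had the own number in 8 of 24 cases. Correlations between mice of other numbers ran from -0.18 to 0.17 over 36 pairs, with a median of -0.0077 against 0.018 for the same number. With so few mice per group this check cannot decide whether the numbers pair the mice. A replicate block left 2 called members after knockdown, 0 for rescue minus control instead of 1, and 71 called genes instead of 352 there. Depth is not known from TPM, so a low value cannot be told from few reads.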
